A study of Mus musculus with 23 samples.

Results

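Meningeal fibroblasts are the connective tissue cells of the membranes around the brain, and a few of their relatives follow the larger vessels into it. They lay down fibrillar collagens and the small leucine-rich proteoglycans that bind and space collagen fibrils, they carry transporters and gap junctions of the arachnoid barrier, and they release retinoic acid and growth factors. In a dissected hippocampus such RNA can come from membrane left on the surface, from the sheaths of penetrating vessels and from the stroma of the choroid plexus. The 32 genes described here were chosen by name as genes of these cells and their matrix, out of 39017 genes in each of 2 deposited tables. They comprise 5 collagen chains, 5 small leucine-rich proteoglycans, 7 other matrix and matrix-processing genes, 6 transporter and junction genes, 4 genes of retinoid and growth factor signalling, 3 forkhead transcription factors and 2 other secreted proteins. All 32 were found in both tables.

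The 4 groups compared hold 5 mouse hippocampal libraries each. KO CSDS libraries 1 to 5 come from mice labelled as Neurensin2 (Nrsn2) knockout that went through chronic social defeat stress (CSDS), 10 days of meetings of 5 min with an unfamiliar CD-1 aggressor. KO control libraries 6 to 10 come from mice of that label without defeat. WT CSDS libraries 1 to 5 and WT control libraries 6 to 10 are the wild-type counterparts. The labels give neither the allele nor the age of the mice, and do not say whether each library is 1 animal. The p-values therefore cover only the spread from library to library, which may be technical. Values are RPKM, reads per kilobase of gene scaled to library size, so they can be set side by side between genes.

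The target of the knockout was not lower under that label. Nrsn2 was at 31.98 to 37.4 RPKM in KO CSDS and 28.02 to 33.1 in KO control libraries, against 27.3 to 33.3 in WT CSDS and 25.3 to 31.5 in WT control libraries. In what follows KO refers to the label alone. All 16 hippocampal neuron markers examined passed the filter on low values. Another 3 libraries, KO 10B, KO 11 and WT 9B, have a title that says control and a treatment field that says CSDS, and they are in none of the comparisons. KO control 10 and WT control 10 had 48.2 and 56.5 RPKM of Xist, the RNA made by female cells, against at most 0.0618 in the other 18 libraries compared. Ddx3y, a gene of the Y chromosome, was at 0.499 and 0.163 RPKM in them, against 9.66 to 12.97 in the other 18. The control groups, and not the CSDS groups, thus included a library of female pattern. The labels used do not give sex, it was in none of the fits, and its part in the comparisons was not tested. Of the libraries of conflicting label, KO 10B and KO 11 had 1.45 and 1.60 RPKM of Xist, in between, and WT 9B had 0.025. Estimated depth was 25.62 to 55.68 M reads a library, median 45.35 M. In bulk tissue, fewer cells of a type and less RNA per cell cannot be told apart.

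The levels of the 32 genes spanned a wide range. Ptgds, which encodes a prostaglandin D synthase abundant in cerebrospinal fluid, had the highest mean over the 20 libraries, 402 RPKM. Mgp followed at 33.6, Dcn at 26.5, Igf2 at 26.0 and Igfbp2 at 25.5 RPKM. The lowest were Foxc2 at 0.324 and Foxd1 at 0.303 RPKM, which were under the minimum mean of 0.5 RPKM needed to enter the tests, and so 30 of the 32 genes were tested. Each gene was listed above 0 in every library. The highest library of a group was 20.1 times the lowest for Slc47a1 in WT controls, and 1.05 times the lowest for Cemip after CSDS in WT.

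Start regions are shown for 3 of the genes that were lower after CSDS with the KO label, the 3 of smallest p with an entry among the promoters of RefSeq (build GRCm38, 250 bases before to 50 after the start). Capitals mark the motifs found out of 4 that were searched on both strands. These were the TATA box core, spelled TATAAA, and the GC box, spelled GGGCGG. The CCAAT box, by that spelling, and a forkhead motif, spelled GTAAACA, were searched as well. A motif is a match of letters and not a shown binding site.
Slc6a13, chr6:121300038-121300337, plus strand: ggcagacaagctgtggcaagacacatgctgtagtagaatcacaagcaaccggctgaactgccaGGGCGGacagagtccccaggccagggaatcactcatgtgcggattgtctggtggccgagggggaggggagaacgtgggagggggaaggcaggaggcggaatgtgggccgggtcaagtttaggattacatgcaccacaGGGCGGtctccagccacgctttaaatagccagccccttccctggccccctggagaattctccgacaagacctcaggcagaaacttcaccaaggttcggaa
Gjb2, chr14:57104653-57104952, minus strand: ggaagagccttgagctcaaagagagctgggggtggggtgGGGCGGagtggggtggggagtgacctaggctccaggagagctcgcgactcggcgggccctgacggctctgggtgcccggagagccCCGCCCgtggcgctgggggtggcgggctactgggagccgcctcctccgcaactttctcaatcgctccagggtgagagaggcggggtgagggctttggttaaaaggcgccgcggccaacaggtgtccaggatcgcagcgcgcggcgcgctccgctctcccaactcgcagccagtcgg
Col3a1, chr1:45311288-45311587, plus strand: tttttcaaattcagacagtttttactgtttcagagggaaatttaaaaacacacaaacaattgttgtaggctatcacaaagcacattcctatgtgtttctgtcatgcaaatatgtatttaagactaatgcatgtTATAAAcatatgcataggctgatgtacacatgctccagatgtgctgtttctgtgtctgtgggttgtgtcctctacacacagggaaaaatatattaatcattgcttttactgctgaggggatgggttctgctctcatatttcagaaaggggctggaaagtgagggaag

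The Slc6a13 window held GGGCGG at 187 and 50 bases before the start, and the Gjb2 window held it at 211 bases before the start and, on the other strand as CCGCCC, at 126 bases. The Col3a1 window held no GC box and had TATAAA at 117 bases before the start. Of the 32 genes, 23 had an entry. GGGCGG was in 12 of these 23, against 35.6% of all 32817 windows, CCAAT in 7 against 37.4%, and TATAAA in 3 against 13.6%. The forkhead motif GTAAACA was in 1 of the 23, Col6a1, against 3.65% of all windows, and in 0 of the 8 entries of genes lower after CSDS with the KO label. None of the motifs searched was in all 3 windows shown. The RefSeq start of Slc6a13 lies 61 bases inside the gene as deposited.

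Within each group the libraries differed from one another more in these genes than in most others. The median standard deviation between libraries of a group, on the log2(RPKM + 0.5) scale, was 0.34 in KO CSDS, 0.43 in KO control, 0.23 in WT CSDS and 0.64 in WT control libraries for the 30 tested genes. Over all genes tested it was 0.07, 0.09, 0.07 and 0.08 in the same order of groups. The genes moved together from library to library. KO CSDS 3 was the highest of its group for 24 of the 32 genes and KO CSDS 2 the lowest for 25. Among KO controls, library 9 was the highest for 25 genes and library 7 the lowest for 23. Among WT CSDS libraries, library 5 was the highest for 15 and library 3 for 13, while library 2 was the lowest for 28. Among WT controls, library 10 was the highest for 29, while library 6 was the lowest for 17 and library 9 for 14. KO control 9 was the highest of all 20 libraries for 21 genes, and WT controls 6 and 9 were the lowest for 15 and 11.

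**Figure D1:**
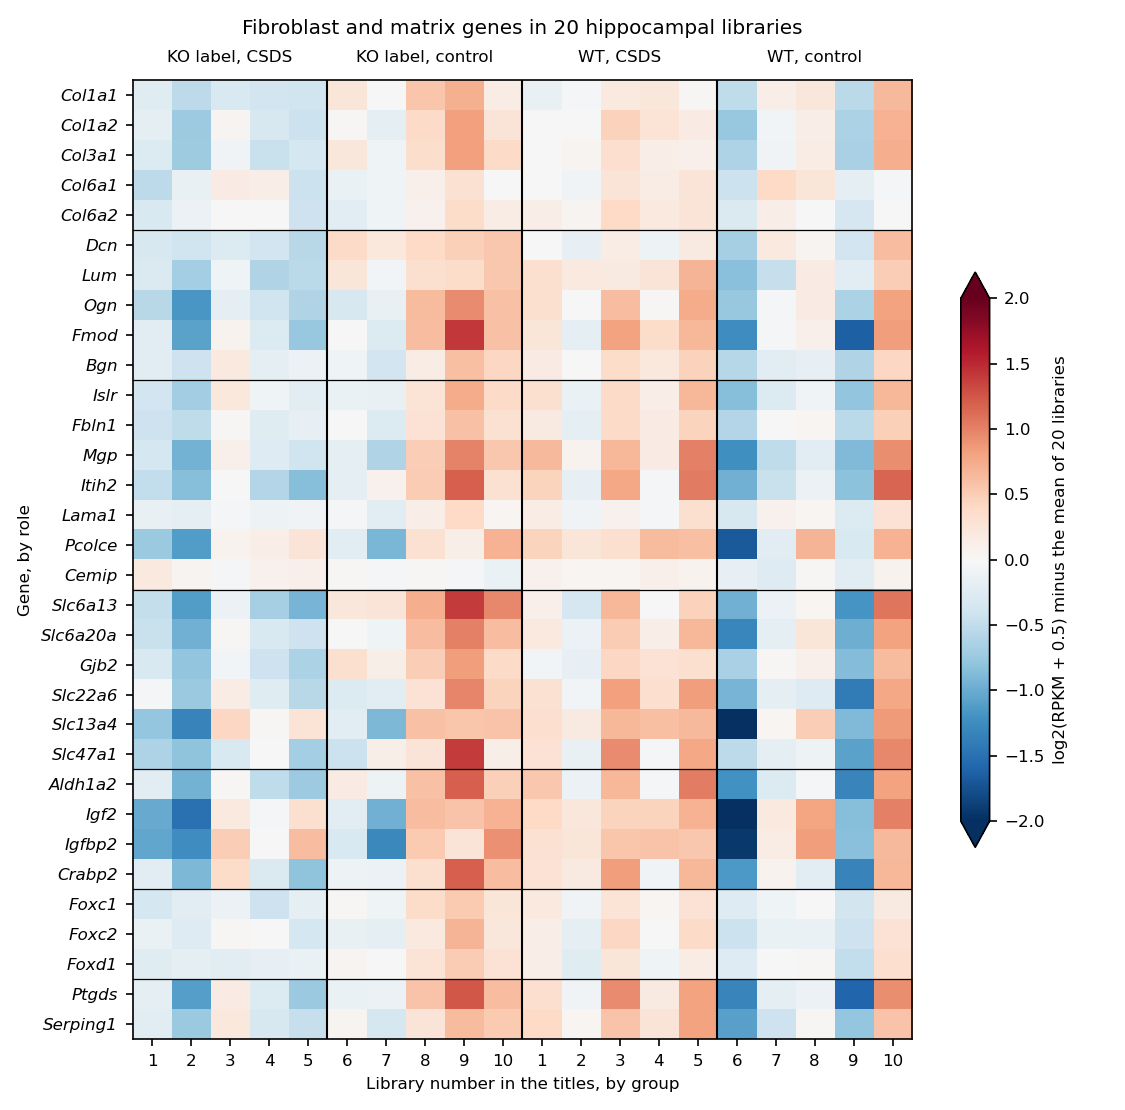
Level of each of the 32 genes (rows, grouped by role between the horizontal lines) in each library (columns, grouped by label), as log2(RPKM + 0.5) minus the mean of the 20 libraries, with red above and blue below it. Most of a column takes 1 colour, as in KO CSDS 2, KO control 9, WT control 6 and WT control 10, while the Cemip row stays near 0 throughout.

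A single value per library was taken as the median, over the 30 tested genes, of the log2 deviation from the mean of the 20 libraries. KO CSDS libraries 1 to 5 were at −0.31, −0.77, 0.02, −0.27 and −0.43, against −0.06, −0.11, 0.38, 0.73 and 0.46 in KO control libraries 6 to 10. WT CSDS libraries 1 to 5 were at 0.26, −0.04, 0.45, 0.16 and 0.63, against −0.85, −0.08, 0.04, −0.79 and 0.68 in WT control libraries 6 to 10. KO CSDS 3 therefore lay above KO controls 6 and 7, and the WT control group reached from below to above every WT CSDS library.

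The first comparison asked what defeat changed in mice of the KO label. Of the 30 genes tested, 11 fell and 0 rose, against 8.88% of all 18259 genes that fell and 6.17% that rose (limma, Benjamini-Hochberg adjusted p under 0.05). Among the 30, 29 had a fold change below 0, with a median of −0.60 on the log2(RPKM + 0.5) scale, against −0.01 over all genes tested. With KO 10B and 11 taken as controls, 26 of the 30 were below 0. For 6 genes, Dcn, Lum, Col1a1, Slc6a13, Gjb2 and Foxc1, every KO CSDS library lay below every KO control library, as for 7.46% of all genes tested. The 11 genes came from 6 of the 7 roles.

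**Figure D2:**
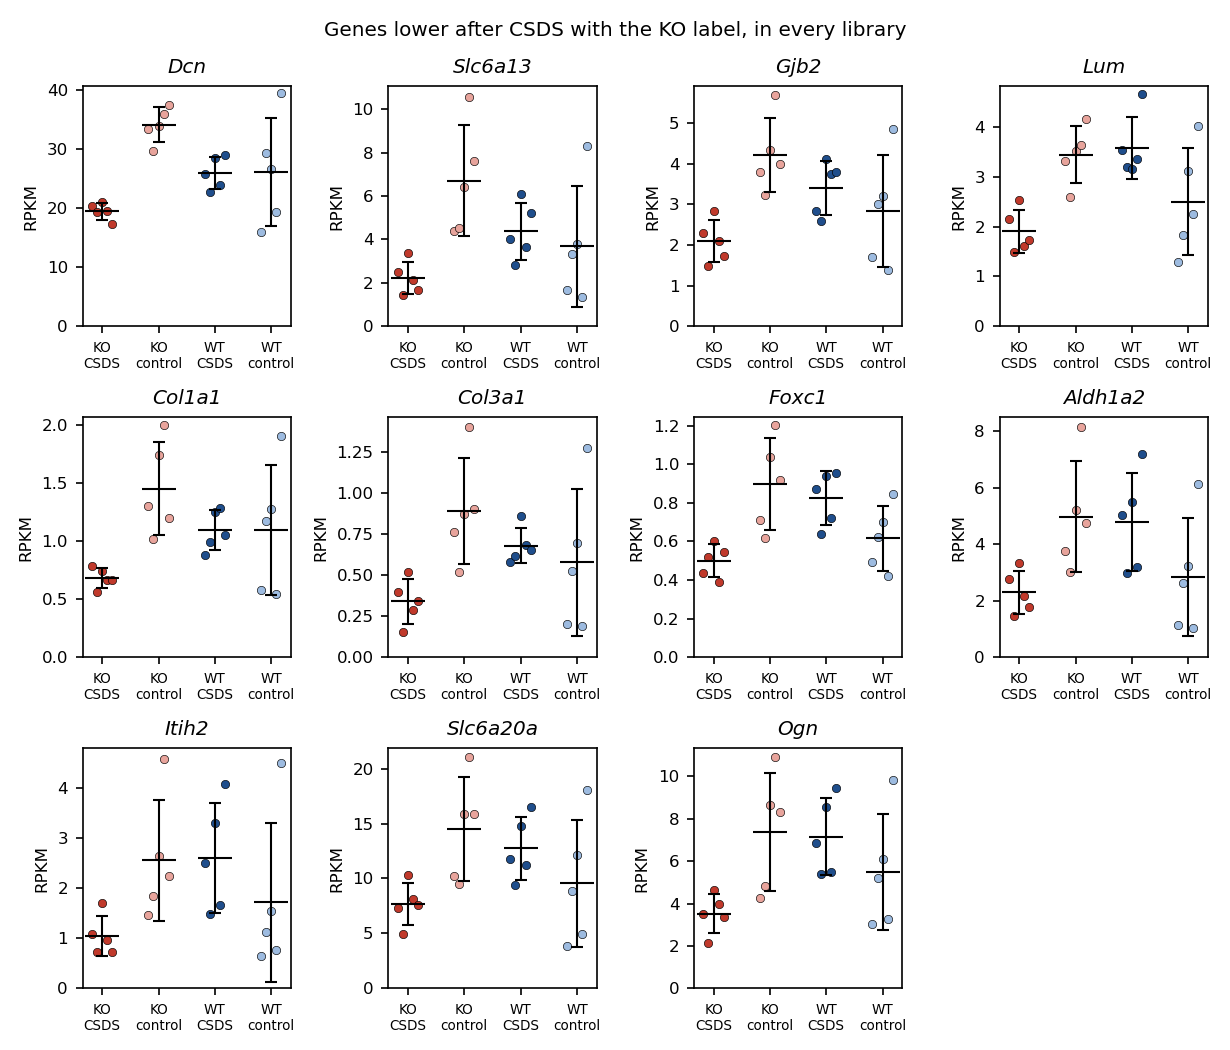
RPKM of the 11 genes that fell after CSDS with the KO label, in every library (points, in the order of the library numbers), with the mean and SD of each group of 5 (bars). For Dcn the KO CSDS libraries span 17.3 to 21.0 RPKM, below the 29.8 RPKM of the lowest KO control and the 22.8 RPKM of the lowest WT CSDS library, whereas WT controls spread from 16.04 to 39.6 RPKM.

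The small leucine-rich proteoglycans gave 3 of the 11. Dcn (decorin, chromosome 10, 97479609 to 97518143, mm10), which binds collagen fibrils and growth factors, was at 20.4, 19.3, 21.02, 19.6 and 17.3 RPKM in KO CSDS libraries 1 to 5, against 33.5, 29.8, 34.04, 36.01 and 37.6 in KO control libraries 6 to 10. The groups did not overlap, and Dcn varied little within each of them. Its log2 fold change was −0.79 ± 0.07 (SE), with adjusted p = 0.000252 by limma, the smallest among the 30 genes. In WT, Dcn was at 25.8, 22.8, 28.6, 23.9 and 29 RPKM after CSDS, against 16.04, 29.3, 26.7, 19.5 and 39.6 in controls, whose range enclosed all the CSDS values.

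Lum (lumican, chromosome 10, 97565128 to 97572703), a keratan sulfate proteoglycan of collagen-rich tissue, was at 2.14, 1.497, 2.54, 1.62 and 1.72 RPKM in KO CSDS libraries, against 3.31, 2.596, 3.52, 3.63 and 4.15 in KO controls. The highest KO CSDS library, number 3, lay just under the lowest KO control, number 7. The change was −0.72 ± 0.13 (adjusted p = 0.00669). In WT it was at 3.53, 3.197, 3.15, 3.36 and 4.65 RPKM after CSDS, against 1.29, 1.84, 3.11, 2.24 and 4.01 in controls, so that library 5 stood apart after CSDS and control 10 lay above the other 4 CSDS libraries.

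Ogn (osteoglycin or mimecan, chromosome 13, 49608046 to 49624501), another small proteoglycan of connective tissue, was at 3.51, 2.12, 4.64, 3.997 and 3.38 RPKM in KO CSDS libraries, against 4.25, 4.83, 8.63, 10.9 and 8.34 in KO controls. The groups overlapped, since KO CSDS 3 lay above KO control 6. The change was −0.92 ± 0.25 (adjusted p = 0.0339). WT libraries had 6.85, 5.39, 8.57, 5.51 and 9.43 RPKM after CSDS, against 3.01, 5.22, 6.09, 3.29 and 9.84 in controls. Fmod (fibromodulin), which regulates fibril thickness, had an estimate of −0.92 ± 0.31 with adjusted p = 0.0711, and Bgn (biglycan) one of −0.29 ± 0.18 with adjusted p = 0.307. Neither passed, though Fmod averaged 2.84 ± 1.006 RPKM in KO CSDS and 6.103 ± 3.17 in KO control libraries (SD, n = 5 each).

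Of the collagen chains, 2 of 5 fell. Col1a1 (chromosome 11, 94936224 to 94953042), which encodes a chain of type I collagen, the main fibrillar collagen, was at 0.7904, 0.5598, 0.745, 0.669 and 0.662 RPKM in KO CSDS libraries, against 1.302, 1.023, 1.74, 1.997 and 1.204 in KO controls. All KO CSDS libraries were below all KO controls, and the change was −0.70 ± 0.13 (adjusted p = 0.00688). WT had 0.8805, 0.997, 1.25, 1.28 and 1.05 RPKM after CSDS, against 0.5797, 1.17, 1.28, 0.549 and 1.91 in controls, with the CSDS values inside the control range. Col3a1 (chromosome 1, 45311538 to 45349706), the chain of type III collagen, which accompanies type I in loose connective tissue, was at 0.396, 0.155, 0.522, 0.288 and 0.343 RPKM in KO CSDS libraries, against 0.763, 0.517, 0.871, 1.4 and 0.902 in KO controls. KO CSDS 3 and KO control 7 had nearly the same value, and the change was −0.71 ± 0.16 (adjusted p = 0.0176). In WT it was at 0.582, 0.615, 0.858, 0.685 and 0.655 RPKM after CSDS, against 0.203, 0.526, 0.696, 0.1903 and 1.28 in controls. Col1a2, the partner chain of Col1a1, had an estimate of −0.58 ± 0.19 and did not pass (adjusted p = 0.0647). The chains of type VI collagen, a beaded microfibril also made by other cells, gave −0.20 ± 0.14 for Col6a1 and −0.23 ± 0.12 for Col6a2, with adjusted p = 0.361 and 0.235.

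Among the other 7 matrix and processing genes, 1 fell. Itih2 (chromosome 2, 10094593 to 10131396), a heavy chain that is linked to hyaluronan, was at 1.08, 0.728, 1.703, 0.971 and 0.73 RPKM in KO CSDS libraries, against 1.46, 1.85, 2.65, 4.58 and 2.25 in KO controls. KO CSDS 3 lay above KO control 6, so the groups overlapped. The change was −0.94 ± 0.24 (adjusted p = 0.0278). WT libraries were at 2.51, 1.49, 3.304, 1.66 and 4.08 RPKM after CSDS, against 0.646, 1.13, 1.54, 0.758 and 4.498 in controls, of which control 10 stood far above the others. Mgp, the matrix Gla protein that inhibits calcification, averaged 23.98 ± 6.14 RPKM in KO CSDS and 38.8 ± 16.2 in KO control libraries and did not pass (adjusted p = 0.177). Islr, Fbln1 (fibulin 1), Pcolce (an enhancer of procollagen processing) and Lama1 (a basement membrane laminin chain), of which Islr shares 6.74% of its exon bases with Islr2, had estimates of −0.46, −0.44, −0.27 and −0.17, none of which passed. Cemip, which takes part in the breakdown of hyaluronan, was the exception, with 2.95 to 3.52 RPKM in KO CSDS and 2.702 to 3.06 in KO control libraries and an estimate of 0.11 ± 0.05 (adjusted p = 0.145).

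The transporter and junction genes fell in 3 of 6 cases, and the largest fold change of the 30 genes was among them. Slc6a13 (chromosome 6, 121300227 to 121337733), the GABA transporter GAT2 of meningeal cells, was at 2.51, 1.42, 3.36, 2.16 and 1.69 RPKM in KO CSDS libraries, against 4.41, 4.53, 6.397, 10.6 and 7.62 in KO controls. The groups did not overlap, and the change of −1.38 ± 0.25 (adjusted p = 0.00602) put RPKM + 0.5 in KO CSDS libraries at 38.5% of that in KO controls. In WT it was at 4.02, 2.83, 6.12, 3.67 and 5.24 RPKM after CSDS, against 1.66, 3.35, 3.79, 1.35 and 8.32 in controls. Gjb2 (chromosome 14, 57098600 to 57104702), the gap junction protein connexin 26, was at 2.299, 1.49, 2.84, 2.096 and 1.73 RPKM in KO CSDS libraries, against 3.798, 3.23, 4.35, 5.69 and 3.99 in KO controls. Again the groups did not overlap (−0.86 ± 0.16, adjusted p = 0.00624). WT had 2.83, 2.58, 4.11, 3.73 and 3.79 RPKM after CSDS, against 1.71, 3.01, 3.21, 1.39 and 4.84 in controls.

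Slc6a20a (chromosome 9, 123634770 to 123678885), a transporter of proline and other imino acids, was at 7.32, 4.97, 10.3, 8.15 and 7.55 RPKM in KO CSDS libraries, against 10.2, 9.54, 15.9, 21.02 and 15.9 in KO controls. KO CSDS 3 lay above KO controls 6 and 7. The change was −0.85 ± 0.23 (adjusted p = 0.0299), and the gene shares 13.8% of its exon bases with an unnamed gene model on the other strand, whose reads cannot be told apart in an unstranded library. WT had 11.8, 9.38, 14.8, 11.2 and 16.5 RPKM after CSDS, against 3.82, 8.85, 12.1, 4.92 and 18.1 in controls. The organic anion transporter gene Slc22a6, the sulfate transporter gene Slc13a4 and the organic cation exporter gene Slc47a1 had estimates of −0.52 ± 0.25, −0.40 ± 0.39 and −0.77 ± 0.29, and none of them passed.

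Of the genes of retinoid and growth factor signalling, Aldh1a2 fell. Aldh1a2 (chromosome 9, 71215789 to 71296243), which encodes the enzyme that makes retinoic acid in the meninges, was at 2.78, 1.47, 3.34, 2.16 and 1.79 RPKM in KO CSDS libraries, against 3.76, 3.02, 5.198, 8.13 and 4.74 in KO controls. KO CSDS 3 lay above KO control 7, and the change was −0.94 ± 0.24 (adjusted p = 0.0276). In WT it was at 5.02, 2.98, 5.48, 3.21 and 7.18 RPKM after CSDS, against 1.14, 2.63, 3.24, 1.023 and 6.14 in controls. Crabp2, which carries retinoic acid to the nucleus, had an estimate of −0.75 ± 0.29 (adjusted p = 0.109). Igf2, an insulin-like growth factor, and Igfbp2, which binds it, gave −0.55 ± 0.42 and −0.25 ± 0.47, with adjusted p = 0.412 and 0.765. Of the exon bases of Igf2, 62.8% belong also to another gene model on the same strand, so its level is uncertain.

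The forkhead factors are transcription factors of the mesenchyme that gives rise to the meninges, and Foxc1 is needed in mouse embryos for the meninges to form. Foxc1 (chromosome 13, 31806633 to 31812476) was at 0.437, 0.521, 0.602, 0.389 and 0.547 RPKM in KO CSDS libraries, against 0.714, 0.616, 1.04, 1.204 and 0.916 in KO controls. The highest KO CSDS library lay under the lowest KO control, and the change was −0.47 ± 0.12 (adjusted p = 0.0245). WT libraries had 0.8703, 0.6403, 0.939, 0.722 and 0.956 RPKM after CSDS, against 0.495, 0.621, 0.703, 0.422 and 0.847 in controls. Foxd1 was at 0.1698, 0.196, 0.187, 0.2104 and 0.226 RPKM in KO CSDS libraries, against 0.321, 0.285, 0.456, 0.621 and 0.467 in KO controls, again with no overlap. Foxc2 was at 0.235, 0.177, 0.317, 0.314 and 0.131 RPKM in KO CSDS libraries, against 0.225, 0.215, 0.421, 0.787 and 0.45 in KO controls, and the groups overlapped. Tested without the filter on low values, Foxd1 changed by −0.40 ± 0.09 (adjusted p = 0.0247), while Foxc2 did not pass (−0.30 ± 0.16, adjusted p = 0.315). In WT, Foxd1 was at 0.366, 0.173, 0.4404, 0.246 and 0.375 RPKM after CSDS, against 0.1605, 0.299, 0.305, 0.0621 and 0.497 in controls, and Foxc2 at 0.3895, 0.214, 0.573, 0.306 and 0.559 RPKM after CSDS, against 0.0993, 0.2401, 0.239, 0.104 and 0.489 in controls, with overlap for both.

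The other secreted proteins did not pass. Ptgds averaged 276 ± 90.8 RPKM in KO CSDS and 515 ± 213 in KO control libraries (SD, n = 5 each; adjusted p = 0.0724). Serping1, the C1 inhibitor of the complement system, averaged 3.44 ± 0.983 and 5.199 ± 1.45 RPKM in the same groups (adjusted p = 0.108). The number of genes that fell was 6 to 15 when any 1 of the 10 libraries was left out, with the lowest count without KO CSDS 4 or KO control 8, and counts of 7 without KO CSDS 1, 2 or 5. Dcn, Col1a1, Slc6a13 and Gjb2 passed in every setting tried, while the count was 6 with KO 10B and 11 taken as CSDS libraries and 4 with them taken as controls. The share of all genes that fell in these settings is not set beside the counts, so the shifts are not shown to be particular to these genes.

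**Figure D3:**
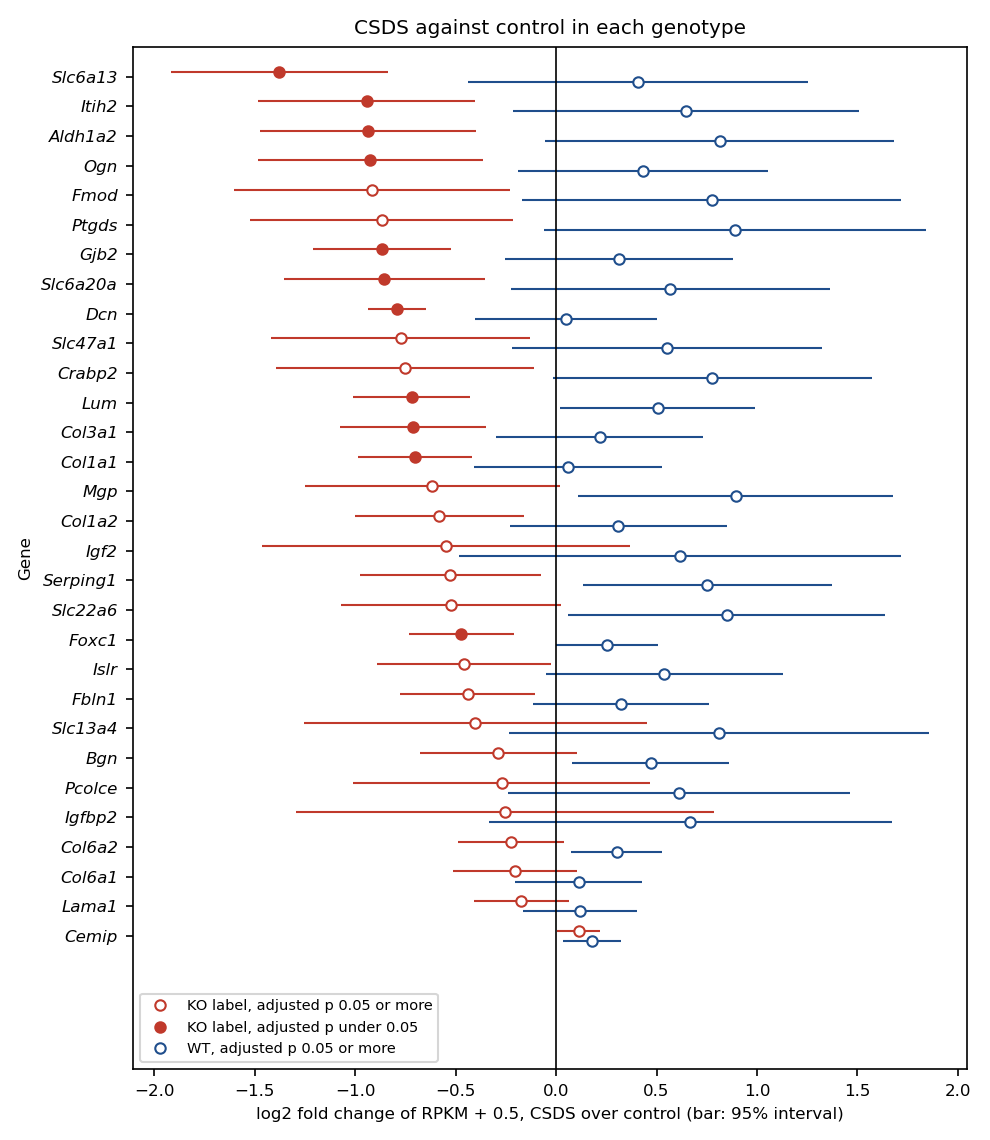
Log2 fold change of RPKM + 0.5, CSDS over control, for each of the 30 genes tested, with its 95% interval, for the KO label (red, upper of each pair) and WT (blue, lower), in the order of the KO change. Filled points have an adjusted p under 0.05. The KO estimates run from −1.38 for Slc6a13 to 0.11 for Cemip, and all WT estimates lie above 0 with no filled point.

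The second comparison asked the same question in WT mice. Of the 30 genes, 0 rose and 0 fell by limma, against 9.88% of all 18274 genes that rose and 12.5% that fell. At an unadjusted p under 0.05 there were 8 genes, a smaller share than the 6616 of all 18274 genes, and also 8 by limma without a variance trend. All 30 estimates were above 0, with a median of 0.52 against −0.0017 over all genes tested. Dcn and Col1a1 were below 0 without WT control 6 or 9, and with WT 9B taken as a CSDS library. Ptgds averaged 500.4 ± 149 RPKM in WT CSDS and 317 ± 224 in WT control libraries (SD, n = 5 each), an estimate of 0.89 ± 0.43 (adjusted p = 0.162). Mgp averaged 44.6 ± 11.95 and 26.8 ± 18.2 RPKM in the same groups (0.89 ± 0.35, adjusted p = 0.0956). The smallest adjusted p belonged to Col6a2, 0.0576, with 1.59, 1.49, 2.01, 1.68 and 1.76 RPKM after CSDS, against 1.05, 1.59, 1.42, 1.008 and 1.42 in controls. Cemip, the gene that stood outside the common pattern with the KO label, had an estimate of 0.18 ± 0.06 in WT.

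WT control 10, 1 of the 2 libraries with high Xist, moved this count most. Without it 11 of the 30 genes rose, while without WT control 7 or 8 there was 1. The share of all genes that rose in these reduced fits is not given here. For Ptgds, WT control 10 had 680 RPKM, against 118 to 328 RPKM in the other 4 WT controls. Markers of red blood cells also moved with the WT comparison. Of 7 such genes, 5 were tested and all 5 rose, with a summed level of 559 to 2808 RPKM in WT CSDS and 206 to 297 RPKM in WT control libraries. Hbb-bs, a beta-globin gene whose reads may be split with its near-identical copy Hbb-bt, changed by 1.82. In the KO comparison 0 of these 5 passed by limma (2 at an unadjusted p under 0.05), and the sum was 178 to 356 RPKM in KO CSDS and 260 to 377 RPKM in KO control libraries. The part of blood in the result was not tested.

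The difference between the responses (KO minus WT) was tested in 1 fit of the 4 groups, which reuses the libraries of both comparisons. By limma 0 of the 30 genes passed, against 0.148% of all 18263 genes. At an unadjusted p under 0.05 there were 23, against 2092 of all 18263 genes, and also 23 without a variance trend. All 30 estimates were below 0, with a median of −1.17. The smallest adjusted p were those of Lum, 0.0705 (difference −1.22 ± 0.27), and Foxc1, 0.0824 (−0.72 ± 0.17). Without WT control 10, 16 of the 30 passed, all lower in KO, and without both libraries of high Xist 8 did, an alternative chosen after seeing the data. For these reduced fits the share over all genes is not given here. The fall seen with the KO label was thus not shown to differ from the WT response by the test with all 20 libraries.

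After CSDS, 4 of the 30 genes were lower in KO than in WT libraries and 0 were higher, against 0.818% and 1.1% of all 18225 genes. They were Dcn, Lum, Ogn and Col1a1, with changes of −0.40 ± 0.07, −0.77 ± 0.13, −0.93 ± 0.19 and −0.42 ± 0.09 (adjusted p = 0.0198, 0.01297, 0.03803 and 0.0331). Dcn averaged 19.5 ± 1.42 RPKM in KO CSDS and 26.01 ± 2.76 in WT CSDS libraries, and Lum 1.903 ± 0.4305 and 3.58 ± 0.617 RPKM (SD, n = 5 each). Every KO CSDS library lay below every WT CSDS library for these 4 genes and for Col3a1, Col6a2 and Foxc1, 7 genes in all, as for 2.5% of all genes tested. The median change of the 30 was −0.71, and 29 were below 0. The count was 14 without KO CSDS 3, 11 without WT CSDS 2, 2 without KO CSDS 4 or 5 or WT CSDS 3, 4 or 5, and 1 without KO CSDS 2. How many of all genes passed without each of these libraries is not given here. The red blood cell markers moved with this comparison as well. Of the 5 tested, 2 were lower in KO, every KO CSDS library lay below every WT CSDS library for all 5, and the median was −1.75. For the difference between the responses their median was −2.05, with 0 of 5 past the threshold by limma and 5 at an unadjusted p under 0.05. The part of blood in either result was not tested.

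Among controls, 0 of the 30 genes passed by limma between KO and WT, against 1.14% of all 18297 genes. At an unadjusted p under 0.05 there were 3 (2 without a variance trend), a smaller share than the 2806 of all 18297 genes. All 30 estimates were above 0, with a median of 0.44, while 5 were below 0 without WT control 6. Slc6a13 averaged 6.71 ± 2.55 RPKM in KO and 3.69 ± 2.79 in WT controls, and Dcn 34.2 ± 2.96 and 26.2 ± 9.19 RPKM (SD, n = 5 each), with adjusted p = 0.294 and 0.332. The KO controls of this comparison are also those of the KO CSDS comparison. Left out 1 at a time, no library brought any of the 30 past the threshold.

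**Figure D4:**
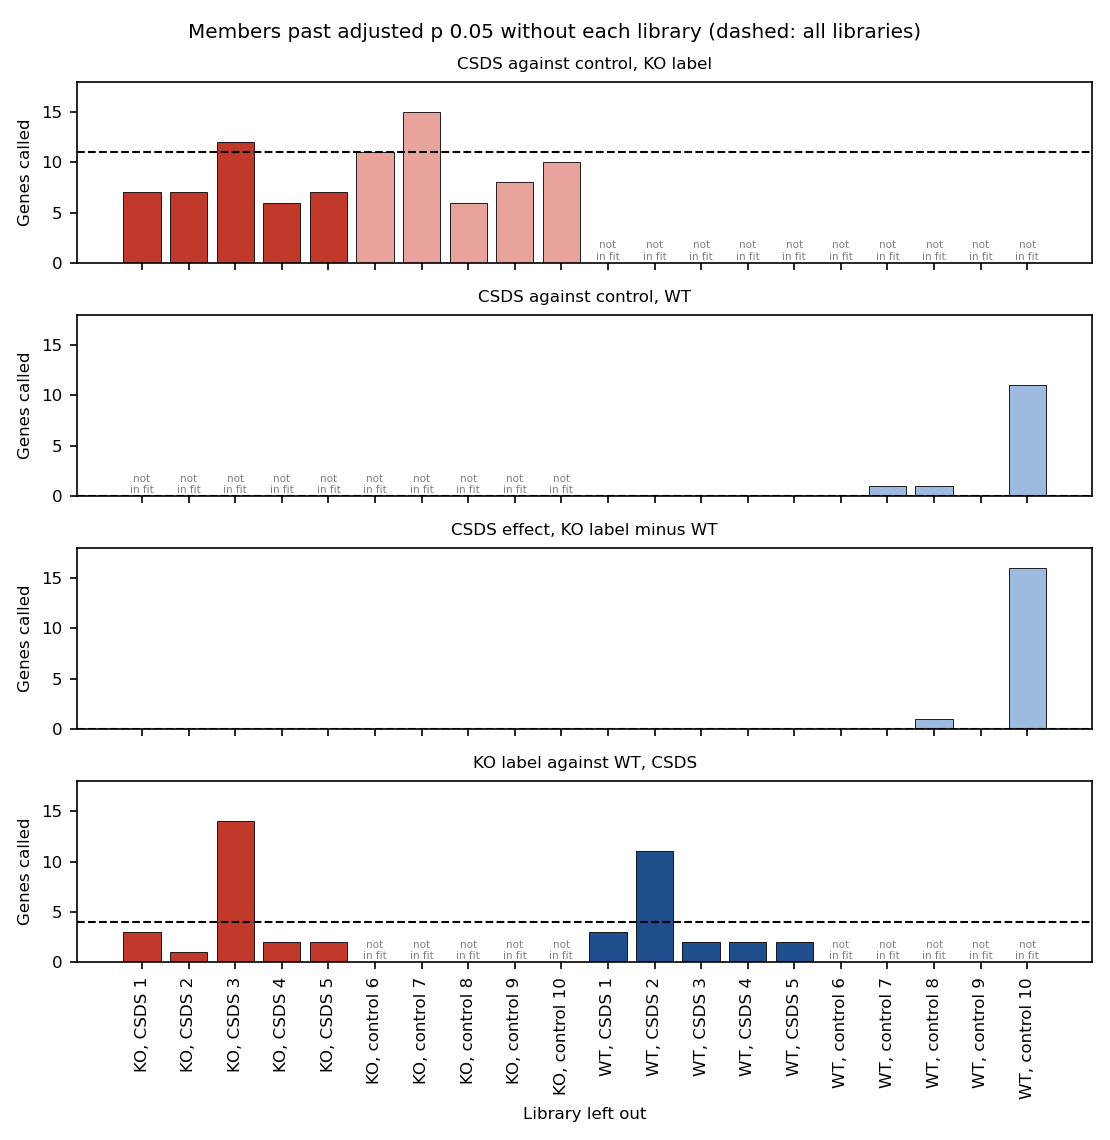
Number of the 30 genes past adjusted p = 0.05 (bars) when the library on the horizontal axis is left out, for 4 comparisons, with the count from all libraries as a dashed line. Counts run from 6 to 15 for KO CSDS against control, and reach 11 in WT and 16 for the difference of the responses when WT control 10 is left out. Counts over all genes are not shown.

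A few of the genes followed another order of libraries, a grouping made after their values were seen. Igf2 was at 11.1, 7.81, 26.1, 22.1 and 28.5 RPKM in KO CSDS libraries, against 19.7, 11.4, 35.3, 34.1 and 37.2 in KO controls, and at 30.1, 26.8, 31.2, 31.4 and 37.2 RPKM in WT CSDS libraries, against 5.18, 26.2, 39.96, 12.5 and 46.4 in WT controls. KO CSDS 5, low for Dcn and Slc6a13, was the highest KO CSDS library for Igf2, and WT control 6 was far below the rest. Igfbp2 was likewise at 10.6, 9.15, 31.8, 22.5 and 34.8 RPKM in KO CSDS libraries, against 18.03, 8.85, 32.4, 27 and 42.7 in KO controls. Ttr (transthyretin), the most abundant transcript of choroid plexus epithelium, was at 715, 481, 3234, 2537 and 3642 RPKM in KO CSDS libraries, against 1503, 552, 3128, 1568 and 4381 in KO controls. It was at 2798, 2928, 3596, 3606 and 3169 RPKM in WT CSDS libraries, against 16.9, 2391, 4739.7, 1476 and 3489.8 in WT controls. KO CSDS 1 and 2, KO control 7 and WT control 6 were thus the lowest of their groups for both Igf2 and Ttr. For Slc13a4 and Pcolce, KO CSDS 2, KO control 7 and WT control 6 were the lowest as well. Much of this order was common to the whole set, since these libraries were the lowest of their groups for 25, 23 and 17 of the 32 genes. Among WT CSDS libraries the order differed, with library 2 lowest for Igf2, Slc13a4 and Pcolce and library 1 lowest for Ttr. Igf2, Igfbp2 and Slc13a4 are made in the choroid plexus as well as in the meninges.

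The choroid plexus list was set beside these genes. Of its 18 genes, 17 were tested in KO and 18 in WT, and by limma 0 passed in either comparison (0 in both at an unadjusted p under 0.05). The median standard error of their log2 fold changes was 0.54 with the KO label and 0.63 in WT, against 0.22 and 0.28 for the 30 genes. Its summed level was 520 to 3864 RPKM in KO CSDS and 594 to 4593 RPKM in KO control libraries, and 2955 to 3806 RPKM in WT CSDS and 27.5 to 4999 RPKM in WT control libraries. Folr1, a folate receptor of the same epithelium, was at 3.11, 2.303, 13.1, 10.4 and 16.3 RPKM in KO CSDS libraries, against 6.23, 2.43, 12.7, 6.98 and 16.6 in KO controls.

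Genes of the meninges beyond the 32 were counted from a further list of 30. With the KO label 8 of 21 tested fell after CSDS and 1 rose. Cyp1b1, a cytochrome P450 of perivascular and meningeal cells, changed by −0.78 ± 0.12, Emp1 by −0.45 ± 0.08 and Gjb6, the connexin 30 gene that astrocytes also express, by −0.55 ± 0.10 (adjusted p = 0.00293, 0.00599 and 0.00651). In WT, 4 of 23 rose after CSDS, among them Pdgfra (0.32) and S100a6 (0.58), and 1 fell, Twist1 (−0.40). After CSDS, 3 were lower in KO than in WT libraries, Pdgfra, Emp1 and Cyp1b1, with changes of −0.21, −0.46 and −0.37. Among controls S100a6 was higher in KO libraries, by 0.31 (adjusted p = 0.0467). Pdgfra also marks oligodendrocyte precursors.

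Of 40 other matrix genes, 36 were tested with the KO label, where 5 fell after CSDS and 1 rose. Omd (osteomodulin), a relative of lumican, changed by −0.85 ± 0.21, Eln (elastin) by −0.49 ± 0.13 and Col6a3, another chain of type VI collagen, by 0.73 ± 0.14 (adjusted p = 0.0229, 0.0332 and 0.009). With the KO label the estimate for Col6a3 thus had the other sign from those of the fibrillar collagens. Its groups overlapped, at 0.932 to 1.52 RPKM in KO CSDS and 0.443 to 0.981 in KO control libraries. In WT it spread from 0.586 to 1.45 RPKM after CSDS and from 0.541 to 1.49 in controls. In WT, 2 of 35 rose, Sparc (0.19) and Fbn1 (0.25), and 0 fell. After CSDS, Eln and Nid1 were lower in KO than in WT libraries, with changes of −0.52 and −0.32. The medians of this list were −0.14 with the KO label and 0.11 in WT, against −0.60 and 0.52 for the 30 genes.

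Other genes of the retinoid and insulin-like growth factor pathways were counted in the same way. Of 13 other retinoid genes, 11 were tested, and Dhrs3, a retinaldehyde reductase, fell in KO CSDS against KO control libraries (−0.35 ± 0.07, adjusted p = 0.00776). Dhrs3 fell in WT as well (−0.33, adjusted p = 0.0048), where Aldh1a1 rose by 0.38. Of 14 genes of the insulin-like growth factor axis, 10 were tested, and with the KO label Igfbp3 and Igfbp4 fell, with changes of −0.46 ± 0.07 and −0.23 ± 0.06 (adjusted p = 0.00363 and 0.022). In WT Igf1r, the receptor, fell (−0.20).

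**Figure D5:**
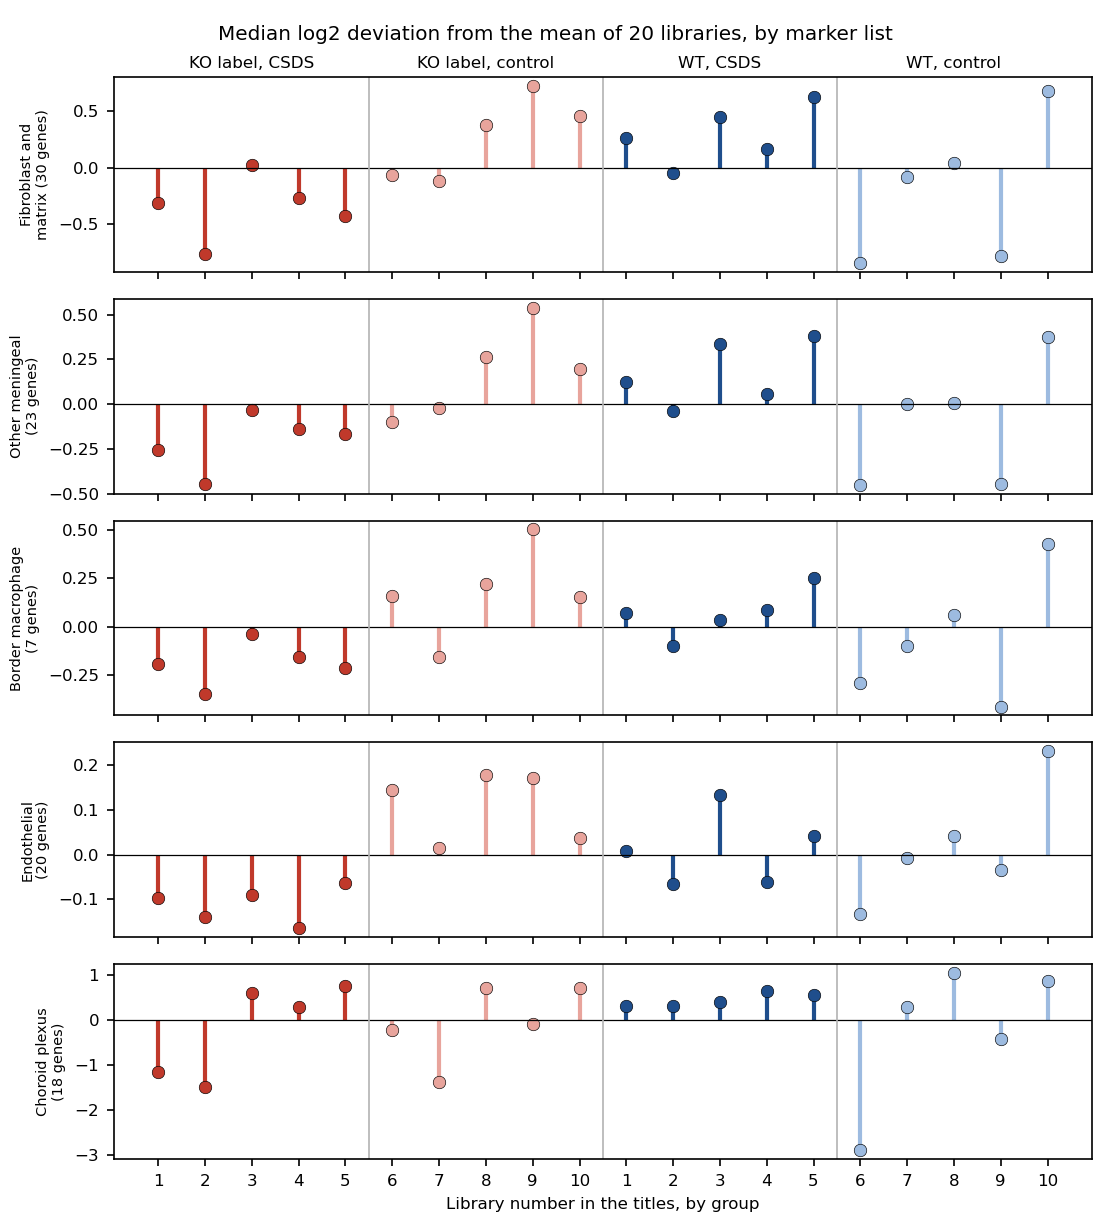
Median deviation of each library from the mean of the 20 libraries, on the log2(RPKM + 0.5) scale, for 5 gene lists (panels, each with its own vertical scale) in the 4 groups. The fibroblast and matrix panel spans −0.85 in WT control 6 to 0.73 in KO control 9, and KO control 9 is also at the top of the other meningeal and border macrophage panels, while the choroid plexus panel has WT control 6 at −2.88.

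Markers of cells that sit beside meningeal fibroblasts moved with the KO comparison too. Of 10 border macrophage genes, 7 were tested and 3 fell after CSDS with the KO label, F13a1 (−0.52), Maf (−0.28) and Mrc1 (−0.52). Their summed level was 5.50 to 7.37 RPKM in KO CSDS and 7.25 to 12.9 RPKM in KO control libraries, and 7.65 to 10.8 RPKM in WT CSDS and 5.99 to 11.6 RPKM in WT control libraries. Mrc1, the mannose receptor, was at 0.732, 0.487, 0.926, 0.734 and 0.5804 RPKM in KO CSDS libraries, against 1.11, 0.801, 1.18, 1.81 and 1.22 in KO controls. In WT 0 of the 7 passed (1 at an unadjusted p under 0.05). Of 20 endothelial genes, 8 fell with the KO label and 1 rose, with a sum of 147 to 163 RPKM in KO CSDS and 160 to 191 RPKM in KO control libraries, and of 157 to 180 RPKM in WT CSDS and 155 to 200.5 RPKM in WT control libraries. Cldn5, the tight junction protein claudin 5, changed by −0.82 ± 0.10 (adjusted p = 0.000996) with the KO label, and in WT, where 3 endothelial genes fell and 1 rose, by −0.48 (adjusted p = 0.00129). In the microglia list 1 of 14 fell with the KO label, and 4 rose in WT. With the KO label, 1 of 13 mural genes fell and 1 rose, 3 of 14 astrocyte genes fell and 2 rose, and 1 of 13 oligodendrocyte and 2 of 16 hippocampal neuron genes fell. In WT, 4 mural genes rose, 3 astrocyte genes rose and 1 fell, and 3 oligodendrocyte and 2 hippocampal neuron genes fell. Of 10 ependymal genes 0 passed with the KO label by limma (1 at an unadjusted p under 0.05), and 1 rose in WT. Markers of neighbouring brain regions, which a dissection can include, were counted too. With the KO label, of 14 tested, 1 rose (Prkcd, 0.59 ± 0.10), 6 had an unadjusted p under 0.05 and 3 were below 0, with a median of 0.23. Their sum was 66.5 to 89.9 RPKM in KO CSDS and 57.4 to 75.0 RPKM in KO control libraries, which overlapped. In WT, 2 of 15 rose and 1 fell, with sums of 71.4 to 82.5 RPKM in WT CSDS and 72.7 to 82.9 RPKM in WT control libraries. None of the border macrophage, endothelial, choroid plexus or red blood cell genes was at 0 in all 20 libraries. The part of these cell types and regions in the results was not tested.

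The authors' deposited table gives its own test, with 7 libraries titled control for the KO label and 6 for WT, the libraries of conflicting label among them. In the authors' deposited table, whose fold changes run control over CSDS, 7 of the 32 genes were lower in KO CSDS libraries at a false discovery rate under 0.05 and 1 was higher, where 17.1% of the 17840 genes tested passed in either direction. The 7 were Col1a1, Col3a1, Dcn, Foxc1, Gjb2, Lum and Slc6a13, which are all among the 11 above, and the higher gene was Cemip. In WT, the authors' deposited table has 0 lower and 5 higher, Bgn, Cemip, Col6a2, Serping1 and Slc22a6, where 21% of all genes passed.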

How the data were processed

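Hippocampal RNA of 23 mouse libraries was extracted with a lipid tissue kit and prepared with an unstranded poly(A) kit, per the labels' protocols. Reads were aligned to mm10 with STAR, per the submitters' processing notes. Its version, the gene annotation and the read counter are not given in the sources used for this work. The authors deposited RPKM per library for each gene, in 1 table per genotype, and, per the file headers, mean RPKM per group, log2 fold changes, mean log2 abundance, a likelihood ratio score, p-values and false discovery rates. The KO table holds some symbols turned into dates, so symbols were taken from the WT table by gene ID. No column of library values was left out.

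Here log2(RPKM + 0.5) was tested with limma 3.58.1 in R 4.3.3 (limma-trend, two-sided, Benjamini-Hochberg adjustment at 0.05 over all genes with mean RPKM of at least 0.5 in the fitted libraries). Fold changes on this scale understate changes of low genes. There were 5 comparisons, namely CSDS against control in each genotype, their difference, and KO against WT after CSDS and among controls, of which the last 3 cross tables that were made separately, and share libraries with the first 2. The procedure was tested on simulated data in which each gene varied independently. That test does not cover genes that move together from library to library. Errors are SD for means and SE for fold changes, n = 5 libraries a group. Depth was estimated from the steps of low values in 11945 single-exon genes. Of the 2388 to 2627 low values used per library, 93.7 to 94.7% came within 0.05 of a whole read. These are the values to which the depth was fitted. Intervals cover the spread between libraries only.

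The 32 genes and all lists were chosen with earlier results of these data known. Values in every library are given for each gene past the threshold in any comparison and for the forkhead factors. Of each other list, up to 3 genes of smallest p past the threshold are named. Igf2, Igfbp2, Ttr, Folr1, Xist, Ddx3y and Fosb were added after their values were seen. Alternatives were the pseudocount (0.1 and 1), the filter (none and a mean RPKM of 1), equal median ratios, quantile normalization, no variance trend, all 4 groups in 1 fit, the libraries of conflicting label as CSDS or control, the library number as a block, and leaving out each library.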

Additional observations from a re-analysis of the deposited data

Results flagged for a closer look

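Over the 32 genes in 4 groups, 128 groups of 5 values were examined for a single library whose gap to the nearest other library took more than 0.71 of the range of the group. The criterion picks out about 1 in 20 groups by chance, and it picked out 3. Lum in WT CSDS 5 was at 4.65 RPKM, against 3.15 to 3.53 RPKM in the other 4 WT CSDS libraries. Slc47a1 in KO control 9 was at 2.79 RPKM, against 0.427 to 1.00 RPKM in the other 4 KO controls. Itih2 in WT control 10 was at 4.50 RPKM, against 0.646 to 1.54 RPKM in the other 4 WT controls.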

How the results depend on the processing

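No gene past the threshold changed direction under any alternative. Estimates that had not passed did change sign for 3 genes with the KO label (Igfbp2, −0.67 to 0.24; Slc13a4, −0.75 to 0.06; Pcolce, −0.60 to 0.13), 2 in WT (Dcn, −0.11 to 0.21; Col1a1, −0.07 to 0.23), 1 after CSDS and 5 among controls. With the libraries of conflicting label taken as CSDS, the number of the 30 genes that fell with the KO label was 6 and the number lower in KO than in WT after CSDS was 1; taken as controls, 4 fell with the KO label and 4 rose in WT. The same choice moved the counts over all genes from 2747 to 143 with the KO label as CSDS, in WT from 4093 to 1240 as CSDS, for the difference of the responses from 27 to 1 as CSDS and 98 as controls, and among controls from 209 to 978. Quantile normalization and 1 fit of all 4 groups each gave 2 genes that rose in WT. The number lower in KO after CSDS was 2 with no filter on low values and 1 in the fit of all 4 groups, which called 723 genes of all among controls. Without 1 library, the counts were 6 to 15 with the KO label, 0 to 11 in WT, 0 to 16 for the difference of the responses, 1 to 14 between KO and WT after CSDS and 0 to 0 between controls. Counts over all genes were not set beside these, so the shifts are not shown to be particular to the 30 genes. Without both libraries of high Xist, 8 genes passed for the difference of the responses. The cause of these shifts was not tested.

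With the library number of the titles as a block, 0 genes passed for the difference of the responses, 0 among controls and 4 after CSDS, where Dcn, Lum and Col1a1 lost their call (adjusted p = 0.0646, 0.0551 and 0.0833). Over all genes the block gave 162 in place of 349 after CSDS and 45 in place of 209 among controls. Libraries of the same number deviated together by a correlation over 0.1 in 3 of 10 pairs (range −0.11 to 0.37). These were controls 6, 8 and 10, at 0.21, 0.30 and 0.37. For 5 of the 10 KO libraries, the WT library of the same number was the best match. No label says what the numbers mark, and the main fits did not pair libraries by them. No block could be used for CSDS against control, where the groups share no number. Low genes rest on few reads, an estimated 13 to 87 for Foxc2 and 15 to 384 for Slc47a1, from annotated exon lengths, so the figures are approximate.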

Other observations

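The 3 libraries whose title and treatment field disagree were set beside the groups of their genotype. KO 10B and KO 11 lay below the range of the 5 KO controls for 28 of the 32 genes each and above it for 0. Against the 5 KO CSDS libraries, KO 10B was within the range for 20 genes, below for 9 and above for 3 (Dcn, Col1a1 and Foxc1), and KO 11 was within for 23, below for 7 and above for 2 (Dcn and Foxd1). WT 9B lay below all 5 WT CSDS libraries for 32 of 32 genes, and within the range of the WT controls for 23. The share of all genes outside these ranges was not counted. The 32 genes moved together from library to library, so these counts are not shown to be particular to them. Dcn was at 23.2 RPKM in KO 10B and 26.1 RPKM in KO 11, and at 18.6 RPKM in WT 9B. The immediate early gene Fosb, picked for comparison after its values were seen, was at 2.21 to 2.22 RPKM in KO 10B and KO 11, against 0.772 to 0.878 RPKM in KO CSDS and 2.10 to 2.49 RPKM in KO control libraries. In WT 9B it was at 2.87 RPKM, against 0.923 to 1.08 RPKM in WT CSDS and 2.72 to 3.26 RPKM in WT control libraries. Ttr was at 66.5 RPKM in KO 10B and 62.8 RPKM in KO 11, under the 481 RPKM of the lowest KO CSDS library.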
